A study of Mus musculus with 2 samples.

Results

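The sensory miR-183 cluster comprises 3 microRNA genes, Mir183, Mir96 and Mir182, which lie next to each other on mouse chromosome 6. The members were chosen by symbol: they are the rows of the deposited count tables whose gene identifiers carry these names in the GENCODE M21 annotation. All 3 were found, among 1973 microRNA gene rows. The study sequenced small RNA from whole hindbrain of B6NCrl mouse embryos at day 15.5 of development, with no treatment and no other tissue or age. It has 1 group of 2 biological replicates, each a pool of male and female embryos, with 78 embryos in replicate 1 and 62 in replicate 2. No mutation or transgene is named in the labels, and the cells of the hindbrain were not separated. In such bulk RNA, fewer cells that express a gene and less RNA per cell cannot be told apart. The only comparison that the design holds is that between the pools.

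MicroRNAs are short RNAs, cut from a hairpin precursor, that pair with messenger RNAs through their seed, bases 2 to 8 counted from the 5′ end. The 3 genes of the cluster are transcribed together as 1 primary transcript and are known from sensory cells, among them the hair cells of the inner ear, the photoreceptors of the retina and neurons of sensory ganglia. Mutations in the seed of miR-96 cause progressive hearing loss in mice and humans. Each hairpin has 1 count in the tables. Its 5p and 3p arms, cut from the 2 sides, were thus not measured apart, and no deposited value tells which cells of the hindbrain the reads came from.

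The mature sequences are shown because the 3 genes are related mainly through their 5p arms. RefSeq, on build GRCm38.p6, held both arms of 3 of the 3 members, all on the minus strand. Seeds are in capitals.
mmu-miR-183-5p: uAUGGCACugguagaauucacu
mmu-miR-96-5p: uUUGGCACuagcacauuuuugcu
mmu-miR-182-5p: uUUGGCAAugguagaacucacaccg
mmu-miR-183-3p: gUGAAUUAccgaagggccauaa
mmu-miR-96-3p: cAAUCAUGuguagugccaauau
mmu-miR-182-3p: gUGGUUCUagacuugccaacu
No 2 of the 5p seeds are identical. The seeds of miR-96-5p and miR-182-5p match at 6 of 7 positions, those of miR-183-5p and miR-96-5p also at 6 of 7, and those of miR-183-5p and miR-182-5p at 5 of 7. Over the whole arm the order is different. Aligned from their 5′ ends without gaps, miR-183-5p and miR-182-5p were identical at 18 of 22 positions (81.8%), with the stretch UGGUAGAA in common after the seed. MiR-183-5p and miR-96-5p were identical at 13 of 22 positions, and miR-96-5p and miR-182-5p at 12 of 23. The closest pair by seed and the closest pair by full sequence are therefore not the same.

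The seeds of the 3p arms have at most 3 of 7 positions in common. Among 1679 mature mouse sequences in the RefSeq table, none outside the cluster carries the 7-base seed of miR-183-5p or miR-182-5p. The seed of miR-96-5p is shared by mmu-miR-1271-5p, from the gene Gm24195, which had 0 reads in both libraries. That of miR-96-3p is shared by mmu-miR-3475-5p, from Mir3475, with 494 and 625 reads in replicates 1 and 2.

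The hairpins are shown with the mature arms in capitals, since reads over any part of them count toward the gene.
Mir183: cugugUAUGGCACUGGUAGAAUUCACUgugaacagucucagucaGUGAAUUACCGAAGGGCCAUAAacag
Mir96: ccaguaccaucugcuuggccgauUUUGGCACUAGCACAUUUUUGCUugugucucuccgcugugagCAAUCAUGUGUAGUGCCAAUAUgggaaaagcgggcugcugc
Mir182: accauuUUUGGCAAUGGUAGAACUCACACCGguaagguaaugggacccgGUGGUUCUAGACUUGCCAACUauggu
In transcribed order they are Mir183 (ENSMUSG00000065619.2; chr6:30169668-30169737, 70 nt), Mir96 (ENSMUSG00000065586.1; chr6:30169446-30169551, 106 nt) and Mir182 (ENSMUSG00000076361.1; chr6:30165918-30165992, 75 nt), on GRCm38, which is mm10. Between Mir183 and Mir96 lie 116 nt, and between Mir96 and Mir182 lie 3453 nt, so that the whole cluster spans 3820 nt. M21 places no other gene over this span. The nearest protein-coding genes are Nrf1, on the plus strand and 12.5 kb beyond Mir182, and Ube2h, on the minus strand and 41.6 kb upstream of Mir183.

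A read that matches several loci is listed apart from the genes in these tables, so copies of a sequence elsewhere could lower a count. Exact matches to other microRNA genes in M21, on either strand, reached at most 14 nt for Mir183, 11 nt for Mir96 and 11 nt for Mir182. Over all 141767 M21 transcripts they reached 18 nt, 17 nt and 16 nt. No mature arm, at 21 to 25 nt, had more than 15 nt in common with a transcript outside the cluster. The genome outside annotated transcripts was not searched.

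Mir182 and Mir183 were abundant in the hindbrain and Mir96 was several-fold lower. On the genes' own strand the libraries held 3937840 and 4839647 reads, and each level below is in CPM, a gene's count per 1000000 of these reads. Mir182 had 14165 reads in replicate 1 and 14881 in replicate 2, or 3597 and 3075 CPM (3336 ± 369, SD, n = 2). Mir183 had 12886 and 11716 reads, or 3272 and 2421 CPM (2847 ± 602, SD, n = 2). Mir96 had 3500 and 3271 reads, or 889 and 676 CPM (782 ± 151, SD, n = 2). Every member was lower in replicate 2 by CPM. Counting error was small beside this: the exact 95% interval of Mir96, the member with the fewest reads, was 860 to 919 CPM in replicate 1 and 653 to 699 in replicate 2. Reads without molecular identifiers are not independent molecules, so all intervals here cover counting error only.

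By mean CPM, Mir182 ranked 52, Mir183 ranked 59 and Mir96 ranked 104 among the 426 genes that reached 10 reads in either library. Within each library Mir182 was above Mir183. Across the pools the values of Mir182 and Mir183 overlapped, since Mir183 in replicate 1 was above Mir182 in replicate 2. Those of Mir96 lay below both in both libraries. An exact permutation test of 2 values against 2 cannot give a two-sided p below 0.333, so the order is given without a p. A read spans a whole mature microRNA, so a hairpin's length need not scale its count. Divided by length, the levels were 4448 ± 492 for Mir182, 4067 ± 860 for Mir183 and 738 ± 142 for Mir96 (CPM per 100 nt of hairpin, SD, n = 2), in the same order.

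**Figure D1:**
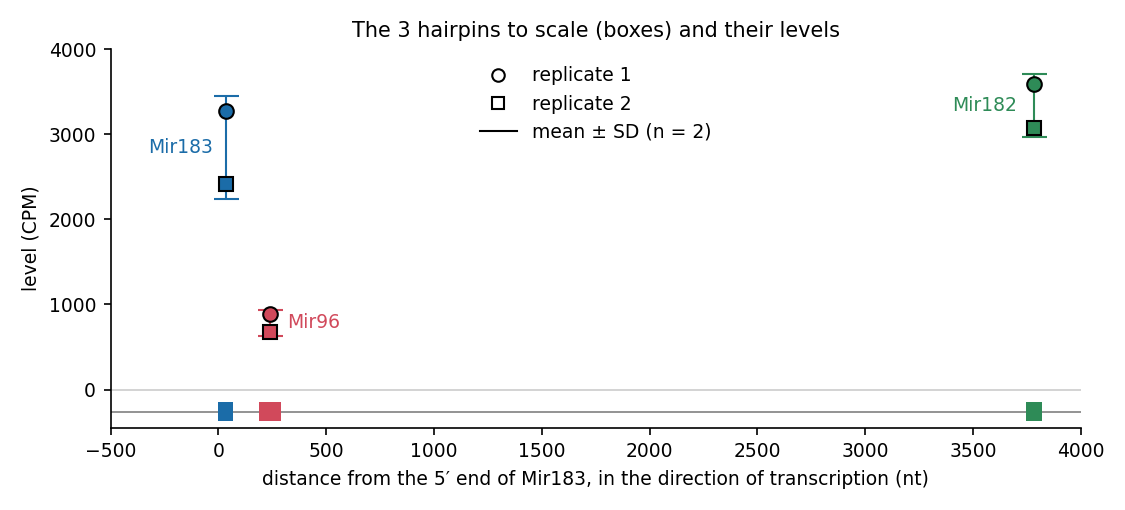
Level of each member in CPM (vertical axis) against its distance in nt from the 5′ end of Mir183, with boxes for the hairpins to scale, circles for replicate 1, squares for replicate 2, and bars for the mean ± SD (n = 2). Mir183 and Mir96, which are 116 nt apart, differ more in level than Mir183 and Mir182, which lie at opposite ends of the cluster.

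The tables name no strand, and the strand with more reads over all genes was read as the genes' own. On the opposite strand, Mir183 had 2 and 3 reads in replicates 1 and 2, or 0.0155% and 0.0256% of its reads, and Mir182 had 2 and 5, or 0.0141% and 0.0336%. Mir96 had 0 of 3500 and 0 of 3271, which by the limit of 3 reads for a count of 0 allows a share of up to 0.0857% and 0.0917%. Over all microRNA genes together the opposite strand held 2.22% and 2.09%. The upper exact 95% bounds of Mir183 and Mir182, at most 0.0784%, were below that. That total is not the share of a typical gene. Of the genes nearest in level to Mir183 and Mir182, named below, only Mir423 had reads on the opposite strand, 2 and 0. Mir299b, named after its values were seen, had 1795 and 2136 there, beside 2 and 10 on its own strand.

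Within the cluster the members kept similar proportions, with a small shift toward Mir182 in replicate 2. Mir182 made up 46.4% of the cluster's reads in replicate 1 (exact Clopper-Pearson 95% interval 45.8 to 46.9) and 49.8% in replicate 2 (49.3 to 50.4). Mir183 made up 42.2% (41.6 to 42.7) and 39.2% (38.7 to 39.8). Mir96 made up 11.5% (11.1 to 11.8) and 10.95% (10.6 to 11.3). The intervals of the pools did not overlap for Mir182 and Mir183, and did for Mir96.

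The ratio between members does not depend on library scaling, so it was tested directly by Fisher's exact test on the reads, in 3 pairs with Benjamini-Hochberg adjustment over the 3. Mir183 over Mir182 was 0.910 in replicate 1 and 0.787 in replicate 2, a log2 change of -0.21 (95% interval -0.26 to -0.16, adjusted p = 2.47e-16 by Fisher's exact test). Mir96 over Mir182 was 0.247 and 0.220, a change of -0.17 (-0.25 to -0.09, adjusted p = 2.21e-05 by Fisher's exact test). For the adjacent pair, Mir183 over Mir96 was 3.68 and 3.58, and the change of -0.04 (-0.12 to 0.04, adjusted p = 0.323 by Fisher's exact test) did not pass. The interval of this last change leaves room for a shift of up to 0.12 on the log2 scale. Mir182, the member farthest from the other two, thus differed from both in its ratio between the pools. These tests compare 2 libraries and have no replicate check: how far such ratios vary among pools in general is not known from them.

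**Figure D2:**
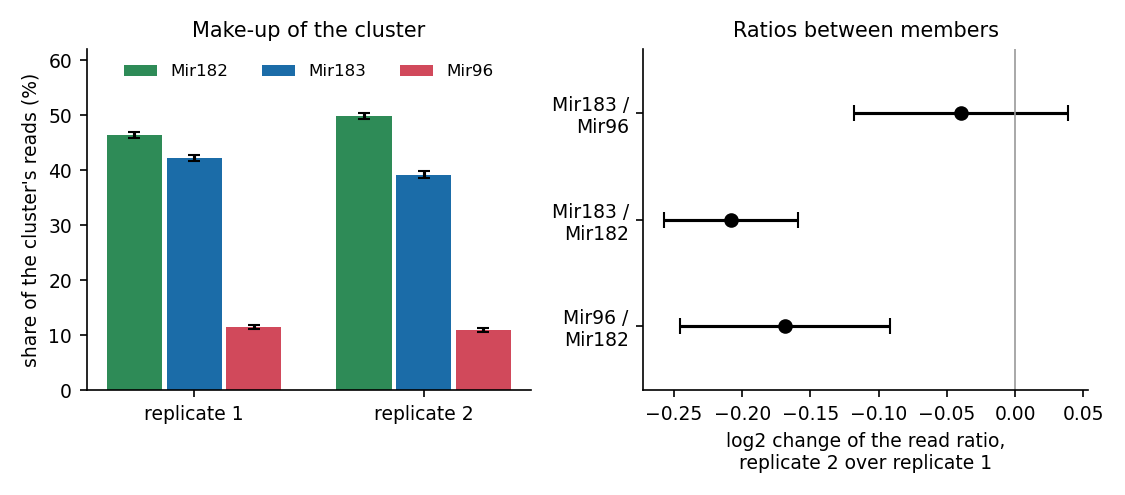
Left, share of the cluster's reads in percent for each member and library, with exact 95% intervals. Right, log2 change of the read ratio between members from replicate 1 to replicate 2 with exact 95% intervals: the interval for Mir183 over Mir96 includes 0, and those for both ratios to Mir182 lie below it.

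Against the other genes of the same libraries, all 3 members were lower in replicate 2 than in replicate 1. After TMM scaling, which sets the libraries to a common level, the log2 ratio of replicate 2 over replicate 1 was -0.45 for Mir183 (exact 95% interval -0.49 to -0.42), -0.41 for Mir96 (-0.48 to -0.34) and -0.24 for Mir182 (-0.28 to -0.21). These are 26.9%, 24.8% and 15.5% less in replicate 2. By the exact binomial test with adjustment over all 426 genes, 3 of 3 members were called lower, with adjusted p-values of 2.86e-131, 1.21e-30 and 2.2e-45. The same test called 35.9% of the 426 genes in either direction, 20.7% lower and 15.3% higher. Among abundant genes a call was more frequent: of the 208 genes whose mean reached 100 CPM, 73 (35.1%) were called lower. The members had means of 782 to 3336 CPM, well above that minimum, where calls were more frequent still. Most of the genes more abundant than Mir182 were called lower. No share was computed for genes at the members' own level. The members' median log2 ratio was -0.41, beside -0.01 over all genes tested. The test covers counting error only and compares these 2 libraries.

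By the size of their ratio the members were among the lowest of the abundant genes. The 208 genes with at least 100 CPM had a median absolute log2 ratio of 0.10 and an SD of 0.18. Of these, 2 had a lower ratio than Mir183, 4 a lower ratio than Mir96, and 15 a lower ratio than Mir182. The 2 below Mir183 were Mir223, a myeloid microRNA, at -0.51 (879 and 766 reads), and Mir494, of the imprinted Dlk1-Dio3 region, at -0.48 (587 and 524 reads). Of the 58 genes more abundant than Mir183, 0 had a lower ratio, and of the 51 more abundant than Mir182, 3 did. Mir223 and Mir494 were named after their values were seen. When variation between pools was allowed for, none of the members was called. Where a coefficient of variation of 0.1 was assumed for every gene, 6 of 426 genes (1.41%) passed edgeR's exact test, which gave the members adjusted p-values of 0.519 for Mir183, 0.595 for Mir96 and 0.985 for Mir182. The unadjusted p-values of that edgeR exact test were 0.028, 0.0474 and 0.236. At a coefficient of 0.2, 0 genes (0%) passed edgeR's exact test after adjustment and 12 had a p under 0.05 before it.

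**Figure D3:**
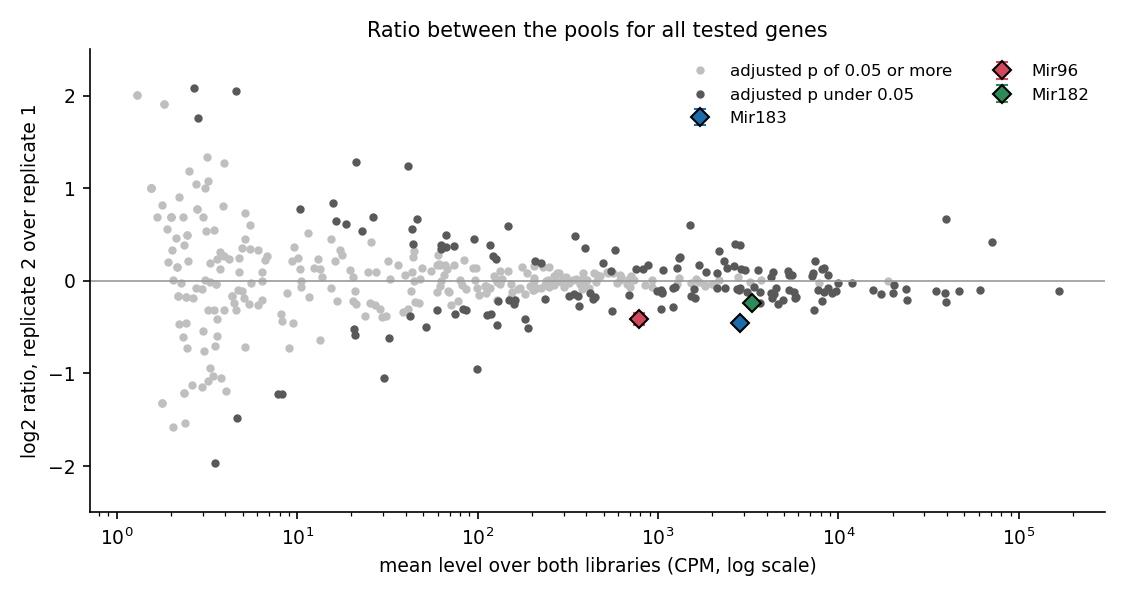
Log2 ratio of replicate 2 over replicate 1 against mean level in CPM (log scale) for the genes tested, with dark points for those past the adjusted threshold of 0.05 by the exact binomial test and diamonds with exact 95% intervals for the members. Mir183, Mir96 and Mir182 sit at -0.45, -0.41 and -0.24, below most genes of similar level. Of the 426 genes 1, with 0 reads in replicate 1, has no finite ratio and is not drawn.

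The 3 genes closest to each member in level had ratios nearer to 0, with intervals that did not overlap the member's. Likeness was the Euclidean distance in log2(CPM + 1) over the 2 libraries. The same 2 values make the ratio, so the neighbours' ratios are not independent of how they were chosen. They add no separate support to the members' place among all genes. The 3 nearest to Mir183 were Mirlet7f-2, Mir15a and Mir296, at distances of 0.25, 0.26 and 0.27. Their log2 ratios were -0.09, -0.09 and -0.08, each called lower. For Mir96 the nearest were Mir543 and Mir300, both of the Dlk1-Dio3 region, and Mir676, at distances of 0.30 to 0.32. Mir543 had a log2 ratio of -0.16 and was called lower, whereas Mir300 at -0.05 and Mir676 at 0.01 were not called. For Mir182 they were Mir21a, Mir423 and Mir872, at 0.14 to 0.17, with log2 ratios of -0.07, -0.12 and -0.02. Mir21a and Mir423 were called lower and Mir872 was not. Beyond these 3, Mir92b, at 3945 and 3370 CPM, had a log2 ratio of -0.24 (-0.28 to -0.21), like Mir182. It was named after its values were seen. With 2 libraries, such likeness describes the level in each pool and little else.

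The members were compared with other microRNA clusters, defined as at least 3 tested genes on 1 strand with gaps of at most 10 kb. There were 16 in all. The miR-183 cluster had the lowest median log2 ratio of the 16, at -0.41, followed by Mir292, Mir293 and Mir294, a pluripotency cluster, at -0.36, whose least abundant gene had 44 reads in both libraries together. Every gene was called lower in 1 of the 16, the miR-183 cluster, and every gene was called higher in 0. A gene with few reads is seldom called by this test. The least abundant gene of the miR-183 cluster had 6771 reads in both libraries together. That of the Mir25, Mir93 and Mir106b cluster had 2332, and those of the other clusters had at most 595. In 2 of the 16 every gene was below 0, the second being Mir292 to Mir294, with 0 of its 3 genes called. Ratios within the cluster spanned 0.21, the third narrowest of the 16, beside a median span of 0.60. A span widens with the number of genes and with counting error, and it was not adjusted for either. The widest, 1.96, was that of a cluster of 6 genes whose least abundant gene had 20 reads in both libraries together. Narrower were the cluster of Mir341, Mir1188 and Mir370, at 0.13, and that of Mir302a to Mir302d, at 0.20. The 3-gene cluster of Mir25, Mir93 and Mir106b spanned 0.28.

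The members were also close to each other in level. The highest was 4.26-fold above the lowest in mean CPM, beside a median of 105-fold over the 16 clusters and a lowest of 1.71-fold for Mir292 to Mir294. Several of the other clusters hold genes with copies elsewhere, whose reads can be listed as placed at several loci, and their part in these folds was not tested.

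**Figure D4:**
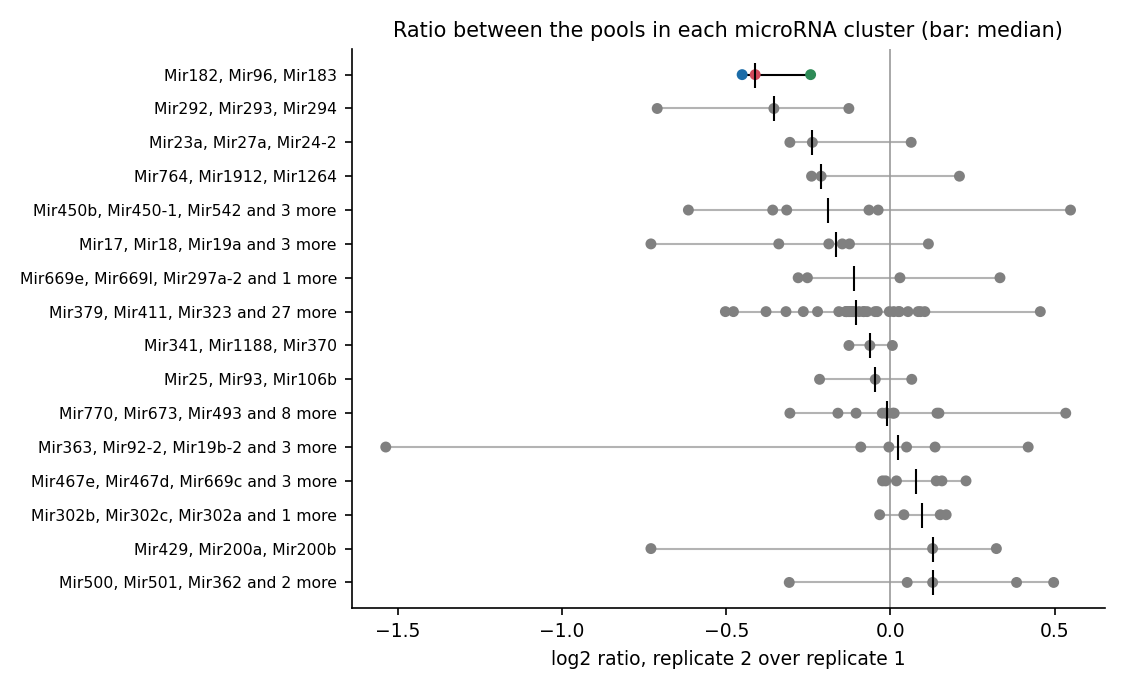
Log2 ratio of replicate 2 over replicate 1 for each gene (points) of the 16 microRNA clusters, ordered by median (vertical ticks). The miR-183 cluster is at the top with a median of -0.41, and its points span 0.21.

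Other microRNA genes of the same chromosomal region had log2 ratios from -0.22, close to that of Mir182, to 0.14. Within 2 Mb of the cluster, Mir335, which lies inside imprinted Mest at a distance of 572 kb, was lower in replicate 2 with a log2 ratio of -0.22 (-0.23 to -0.21, called). Mir29a, 893 kb away, had a ratio of -0.01 with 507 and 624 reads and was not called. Mir129-1, a neuronal microRNA 1143 kb away on the other side, had a ratio of 0.14 with 352 and 482 reads and was not called. Mir29b-1 had 2 and 9 reads and was not tested. The remaining genes in the window, the predicted hairpins Gm24303, Gm26220 and Gm23049, had 0 or 1 read, and Gm44354 was not analysed here.

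MicroRNAs described with the cluster in the inner ear and retina were followed as a list of 14 genes, of which 12 were tested. Of these, 3 were called higher in replicate 2, 3 lower and 6 not at all, with a median log2 ratio of 0.01, beside -0.01 over all genes tested. The Mir124a copies, all uncalled, had at most 21 reads in a library, and reads placed at several loci are not in these counts. Its summed level was 183083 CPM in replicate 1 and 173022 in replicate 2, most of it from Mir99a. Its most abundant genes were Mir99a, expressed in many tissues, at -0.11, Mir140, best known from cartilage, at 0.12, and Mir18, of the miR-17-92 cluster, at 0.12. Mir204, which is abundant in retinal pigment epithelium and choroid plexus, was higher, at 0.32 (0.28 to 0.36).

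Markers of the tissue and of other cells were measured beside the cluster. Their counts of calls stand beside the 15.3% of all 426 genes called higher and 20.7% called lower by the same test. Hox cluster microRNAs, which mark the hindbrain and trunk, were at a summed level of 92090 CPM in replicate 1 and 132296 in replicate 2, with 4 of 5 tested genes called higher. The neural list, led by Mir149 and Mir137, was at 32302 and 33540 CPM, with 4 of 9 called higher and 1, Mir149, called lower. It holds several gene copies each of Mir124a and Mir9, and reads placed at several loci are not in these counts. The Mir124a genes had at most 21 reads in a library, so the sum and order of this list leave such reads out. Choroid plexus and ciliated epithelium genes, led by Mir449a, summed to 5613 and 7172 CPM, with 4 of 6 called higher, and other epithelial genes were at 566 and 653 CPM, with 2 of 7 called higher. The endocrine list, led by Mir7b and Mir375, was at 2554 and 2546 CPM, with 1 of 4 called higher.

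In the lists for blood cells, endothelium and mesenchyme, the calls by the exact binomial test were for lower levels in replicate 2, as for the members. By the same test 20.7% of all 426 genes, and 35.1% of those with a mean of at least 100 CPM, were called lower. The erythroid genes, Mir451a and Mir144, summed to 173 and 125 CPM, with 2 of 2 called lower. The leukocyte genes, led by Mir223, summed to 478 and 377 CPM, with 2 of 3 called lower. Mir126a, of endothelium, was at 25702 and 22600 CPM and called lower, and mesenchymal genes, led by Mir143, summed to 6623 and 5913 CPM, with 3 of 5 called lower and Mir145b at 0 reads. The striated muscle list went the other way, at 39.4 and 53.3 CPM, with 1 of 2 tested genes called higher. That gene was Mir208b, at a log2 ratio of 1.28 (48 and 145 reads). Of this list, Mir133b, Mir133a-1, Mir133a-2 and Mir1a-1 were at 0 reads. Of the genes in these lists, edgeR's exact test with an assumed coefficient of variation of 0.1 called Mir144 and Mir199b lower and Mir208b higher. It called none of the members. The part of these cell types in the members' ratio was not tested.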

How the data were processed

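MicroRNA-seq was carried out on 2 libraries of 1 group. Per the labels and the notes deposited with the tables, the authors mapped reads to mm10 with the GENCODE M4 annotation and deposited raw read counts per gene for both strands together, the gene's own strand and the opposite strand. For the aligner, the trimming and the counting tool, the sources used here name none. Of 8327917 and 10507754 reads, 35.4% and 34.2% were placed at several loci, 13.7% and 15.8% were unmapped and 2.56% and 2.96% lay outside any gene; these rows were left out of library sizes. Of the single-strand columns, that with more reads was read as the genes' own strand. By counting error, a gene at 0 may have had up to 3 reads (0.762 and 0.62 CPM).

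Symbols came from GENCODE M21 by identifier without version (1894 of 1973 matched) and sequences from RefSeq. Genes that reached 10 reads in either library were compared by an exact two-sided conditional binomial test on TMM-scaled library sizes (edgeR 4.0.16, R 4.3.3), with Benjamini-Hochberg adjustment and a threshold of 0.05. With 1 library on each side edgeR's quasi-likelihood test has no residual degrees of freedom. Python 3.11.15 and scipy 1.17.1 were used. The test was checked on simulated counts with counting error only and known library sizes. That check cannot tell how the test behaves where pools vary. Alternatives were DESeq2 1.42.0 size factors, total counts, other count minimums, both strands together, and edgeR's exact test with an assumed coefficient of variation.

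The members and lists were chosen with earlier results of these data known. Genes named in the text are the members, the 3 genes nearest to each in level and microRNA genes within 2 Mb. Also named are genes that share a seed, the leading genes of each list, and list genes with several copies or few or no reads. Mir223, Mir494, Mir92b and Mir299b were named after their values were seen. Clusters are named by their members.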

Additional observations from a re-analysis of the deposited data

Results flagged for a closer look

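Mir182 had 5 reads on the opposite strand in replicate 2, above the 3 reads that a count of 0 allows, in a column that no comparison between the pools uses. Against 14881 reads on its own strand these were 0.0336% of its reads (exact 95% interval 0.0109 to 0.0784), and replicate 1 had 2.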

How the results depend on the processing

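Of 82 alternatives over 19 results, 63 were labelled as leaving the result unchanged. For a tested ratio this meant the same side of the threshold, and for a level, share or span a value within its error. For a count it meant only a value near the main count, so that 65 genes called lower beside 88 was labelled unchanged. A reversed direction could be recorded only for log2 ratios and changes between members, and 0 of these reversed. Some of the 63 could not have come out otherwise. With 2 libraries, a level or share without 1 replicate always lies within the SD of the mean. The span of ratios within the cluster was also fixed, since the same 3 genes stayed in it. The log2 ratio of the members stayed between -0.45 and -0.42 for Mir183, -0.41 and -0.38 for Mir96 and -0.24 and -0.21 for Mir182 under DESeq2 size factors, total counts, minimums of 1 or 50 reads and both strands, and 3 of 3 were called lower in each. The split of all calls moved with the minimum: 88 lower and 65 higher at 10 reads, 65 lower and 72 higher at 1 read. By edgeR's exact test with a coefficient of variation of 0.1, Mir183 at -0.45, Mir96 at -0.41 and Mir182 at -0.24 no longer passed (adjusted p = 0.519, 0.595 and 0.985), 0 members were called lower, and over all genes 6 were called, 2 lower and 4 higher. At 0.2 the adjusted p was 1 for each member at the same ratios of -0.45, -0.41 and -0.24, and 0 genes were called in either direction by edgeR's exact test, with 12 at an unadjusted p under 0.05. Both alternatives add variance by construction.

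Scaled to 1000000 of all reads, unassigned ones included, the levels were 1331 for Mir183, 366 for Mir96 and 1559 for Mir182; per 100 nt of hairpin they were 4067 for Mir183 and 4448 for Mir182. Both are changes of denominator. Leaving out each replicate gave Mir183 2421 to 3272 CPM, Mir96 676 to 889 CPM and Mir182 3075 to 3597 CPM, and shares of the cluster of 39.2% to 42.2%, 10.95% to 11.5% and 46.4% to 49.8%. Leaving out a replicate cannot be done for the ratios, which need both libraries. No paired analysis was possible because the study has 1 group. Depth does not limit the members, which had at least 3271 reads in each library; the number of pools does.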
